A study of Mus musculus with 12 samples.

Results

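Marked and unmarked bone marrow plasma cells were compared 270 days after tamoxifen, across all expressed genes. The comparison rests on 6 of the 12 libraries of the study, 3 of human CD4+ cells (marked) and 3 of human CD4- cells (unmarked), chosen by their titles. Every animal had the genotype BLTcre.mcl1fl/+ on the C57BL/6 strain and carried a human CD4 reporter that tamoxifen switched on. Both pools therefore come from animals of the same genotype and treatment. The state of the floxed Mcl1 allele in marked and unmarked cells was not measured, so a difference in it could not be told apart from marking. The remaining 6 libraries hold the same populations at day 60 and enter here for the shared spread and for the test of a difference between days. The labels give neither the age of the mice, nor whether a specimen was 1 mouse or a pool, nor what drives the Cre. Each marked library shares a specimen number with an unmarked library, and the 3 resulting pairs are called specimens 1, 2 and 3.

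Plasma cells are the antibody-secreting end stage of the B cell lineage, and part of them persist for long periods in niches of the bone marrow. Their maturation from dividing plasmablasts is known to involve exit from the cell cycle and the loss of B cell functions, among them antigen presentation on MHC class II molecules. The marked pool holds cells that carry the reporter and, at the later day, have had it for longer, while the unmarked pool can also hold cells made after tamoxifen. The question of the comparison is how the RNA of the 2 pools differs at that time.

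The 6 libraries held 7449468 to 15943547 reads over the genes of the table. Genes with at least 1 read numbered 12625 to 13506 in unmarked libraries, 12662 in marked library 1, and 11022 and 11301 in marked libraries 2 and 3. In marked library 2, features that resemble ribosomal RNA took 29.8% of reads, against 0.236% to 1.43% in the other 5, and Jchain took 7.90%, against 15.4% to 21.6%. Results are therefore also given without marked libraries 2 and 3. All 7 plasma cell markers checked (Sdc1, Tnfrsf17, Jchain, Mzb1, Xbp1, Prdm1 and Irf4) had reads in every library. Replicates are separate samples by their labels. The p-values of the main fit rest on the spread between libraries within the 4 groups of all 12 libraries, day 60 included. That fit has no term for the specimen that a marked and an unmarked library share.

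Mcl1, a survival factor of plasma cells and the gene named in the genotype, had 527, 589.6 and 549.6 CPM (reads scaled to a common library total) in unmarked libraries 1, 2 and 3. In marked libraries 1, 2 and 3 it had 417, 384 and 513 CPM. All marked values lay below the unmarked ones, but the log2 fold change (marked minus unmarked) of -0.35 ± 0.17 (SE) did not pass the test (adjusted p 0.357). The value counts reads over the whole gene and does not measure recombination of the floxed allele.

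Of 12704 genes tested, 61 (0.48%) differed at a Benjamini-Hochberg adjusted p under 0.05 in limma. Marked cells had higher RNA of 6 of them (0.0472%) and lower RNA of 55 (0.433%). In each of the 61 the marked and unmarked libraries did not overlap. Over all tested genes, groups lay apart with marked higher in 417 (3.28%) and with marked lower in 1519 (12%). Because their groups did not overlap, all 61 necessarily had the same sign in the 3 specimen pairs. Over all tested genes the median log2 fold change was -0.22. By pair it was -0.099 in specimen 1, -0.59 in specimen 2 and 0.066 in specimen 3. Without marked library 2 the median of the fit was -0.061. With TMM scaling and the rest of the fit kept, the median was -0.11, and 22 genes were called higher and 69 lower. Other models, which differ in more than the scaling, gave other splits: limma-voom called 25 in each direction, and DESeq2 94 higher and 162 lower.

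The called genes are described below by their known roles, an order chosen after their values were seen. Over 4 equal bins of mean level, from the lowest to the highest, the called lower genes numbered 15, 15, 8 and 17, and the 6 higher genes 0, 0, 2 and 4. Among the 55 lower genes, 32 had reads in all 6 libraries and 23 had a marked library at 0 reads. Zeros were in marked library 2 for 20 genes, in marked library 3 for 20 and in marked library 1 for 7. Over all tested genes, 2756 had a marked library at 0 and 851 an unmarked one.

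**Figure D1:**
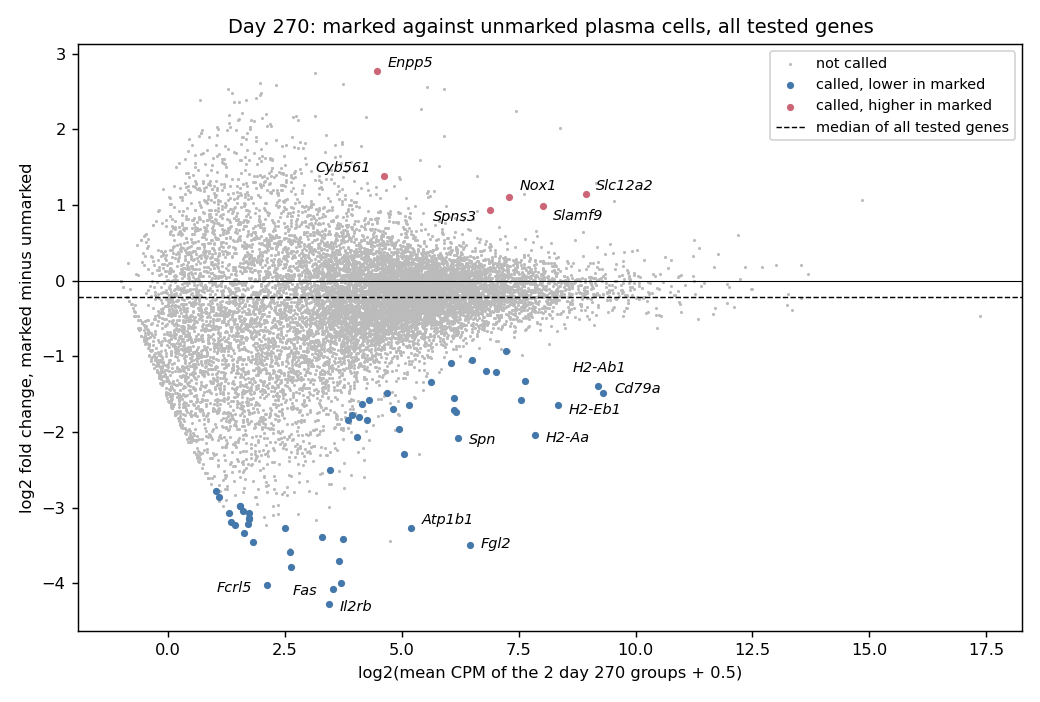
Log2 fold change of marked against unmarked cells at day 270 (vertical) against the log2 of the mean CPM of the 2 groups plus 0.5 (horizontal), 1 point for each of 12704 tested genes. The 55 called lower genes (blue) span all levels, the 6 called higher genes (red) lie in the upper levels, and the dashed line at -0.22 is the median of all tested genes.

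MHC class II molecules present peptides to CD4 T cells. Their genes are known to be switched on through a shared promoter element, made of an X box and a Y box, on which the coactivator CIITA assembles. The stretches below are shown because 3 of these genes were called lower here and H2-Oa, which was not called, is a relative with both boxes. They are RefSeq sequences on GRCm38.p6, each 140 bases ending at the base before the start site, written 5′ to 3′ in the direction of the gene. Capitals mark matches to an X box core (AGCAAC) and a Y box core (CTGATTGG), both searched on either strand of the 250 bases before the start. The matches shown do not overlap. Of the other class II genes, H2-Ob matched the X box core alone, and H2-DMa, H2-DMb1 and H2-DMb2 matched neither. H2-Ab1, Cd74 and Ciita had no entry.
H2-Eb1 (chr17:34305727-34305866, plus strand): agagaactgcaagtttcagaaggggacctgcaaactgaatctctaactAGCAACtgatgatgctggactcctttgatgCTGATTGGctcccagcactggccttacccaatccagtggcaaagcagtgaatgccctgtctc
H2-Eb2 (chr17:34325535-34325674, plus strand): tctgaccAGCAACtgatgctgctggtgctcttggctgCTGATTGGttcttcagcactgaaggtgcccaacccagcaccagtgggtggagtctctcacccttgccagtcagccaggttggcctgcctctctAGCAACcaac
H2-Aa (chr17:34287824-34287963, minus strand): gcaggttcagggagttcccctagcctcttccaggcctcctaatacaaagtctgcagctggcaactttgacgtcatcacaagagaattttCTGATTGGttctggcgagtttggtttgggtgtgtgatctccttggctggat
H2-Oa (chr17:34092239-34092378, plus strand): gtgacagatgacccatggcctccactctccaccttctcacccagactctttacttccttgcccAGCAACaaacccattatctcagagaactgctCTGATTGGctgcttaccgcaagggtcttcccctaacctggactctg
In H2-Eb1 and H2-Eb2 the Y box core began 30 bases after the X box core, and in H2-Oa 31 bases after it. H2-Aa matched the Y box core alone. Of all 32851 RefSeq promoters of this length, 3.83% held the Y box core, 12.2% the X box core and 0.502% both. Among the 8915 tested genes with an entry these shares were 6.48%, 12.6% and 0.909%. A match is a description of letters and not a measured site.

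Marked cells had less RNA of the class II chains. H2-Eb1 encodes the I-E beta chain (ENSMUSG00000060586, chromosome 17, 34305867 to 34316674). It had 520.5, 399 and 556 CPM in unmarked libraries 1 to 3, and 158, 126 and 187 CPM in marked libraries 1 to 3. Every marked library lay below every unmarked one, and the fall was of similar size in the 3 specimens, with pair log2 differences of -1.72, -1.66 and -1.57. The log2 fold change was -1.65 ± 0.18 (adjusted p 3.14e-04), the lowest adjusted p of all genes.

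Both chains of I-A fell as well. H2-Ab1, the beta chain (ENSMUSG00000073421, chromosome 17, 34257689 to 34269419), had 902, 729.7 and 898 CPM in unmarked and 326, 254 and 389 CPM in marked libraries (-1.40 ± 0.18, adjusted p 0.00115). H2-Aa, the alpha chain (ENSMUSG00000036594, chromosome 17, 34282744 to 34287823), had 389.6, 287 and 404 CPM in unmarked and 86.1, 47.8 and 157 CPM in marked libraries (-2.04 ± 0.32, adjusted p 0.00684). Among the marked libraries, number 2 had the least and number 3 the most of both. H2-Eb2, a second I-E beta gene (ENSMUSG00000067341, chromosome 17, 34325665 to 34341412), had 82.0, 64.6 and 62.8 CPM in unmarked and 24.6, 28.3 and 28.7 CPM in marked libraries (-1.34 ± 0.25, adjusted p 0.0194).

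Of the 11 class II genes measured 4 were called lower and 0 higher, all 11 had a negative log2 fold change, and the list median was -1.34 against -0.22 over all genes. H2-Ob, a chain of the peptide-exchange regulator H2-O, had 64.1, 57.0 and 71.1 CPM in unmarked and 34.7, 3.22 and 16.6 CPM in marked libraries. It missed the threshold without the specimen block (adjusted p 0.0560) and passed with it (adjusted p 0.0281). Cd74, the invariant chain that escorts class II molecules, had 11667, 12511 and 11099 CPM in unmarked and 9290.3, 7684 and 10154 CPM in marked libraries. Its groups did not overlap, but the log2 fold change of -0.39 (95% interval -0.84 to 0.07) did not pass (adjusted p 0.431). Ciita, which encodes the coactivator, had reads in 1 unmarked and 1 marked library and is too low to compare.

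B cell genes split. Cd79a, which encodes the receptor's Ig-alpha signalling chain (ENSMUSG00000003379, chromosome 7, 24897381 to 24902197), had 983, 953 and 852 CPM in unmarked and 370.0, 243 and 402 CPM in marked libraries (-1.49 ± 0.18, adjusted p 0.00115). Its partner gene Cd79b had 765, 752 and 732 CPM in unmarked and 716, 561 and 811 CPM in marked libraries, and these groups overlapped (-0.12, 95% interval -0.44 to 0.20, adjusted p 0.744). Fcmr, the Fc receptor for IgM, had 281, 335 and 213 CPM in unmarked and 139, 46.7 and 114 CPM in marked libraries (-1.58 ± 0.30, adjusted p 0.0241). Cd79a and Fcmr were the called genes of 21 in the B cell receptor list, whose median was -0.27. For Ms4a1, which encodes CD20, the groups overlapped (-0.11, adjusted p 0.832). The 9 mature B cell markers measured summed to 404 to 485 CPM in unmarked and 293 to 404 CPM in marked libraries, with 0 called. In bulk samples such as these, fewer cells of a type and less RNA per cell cannot be told apart.

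**Figure D2:**
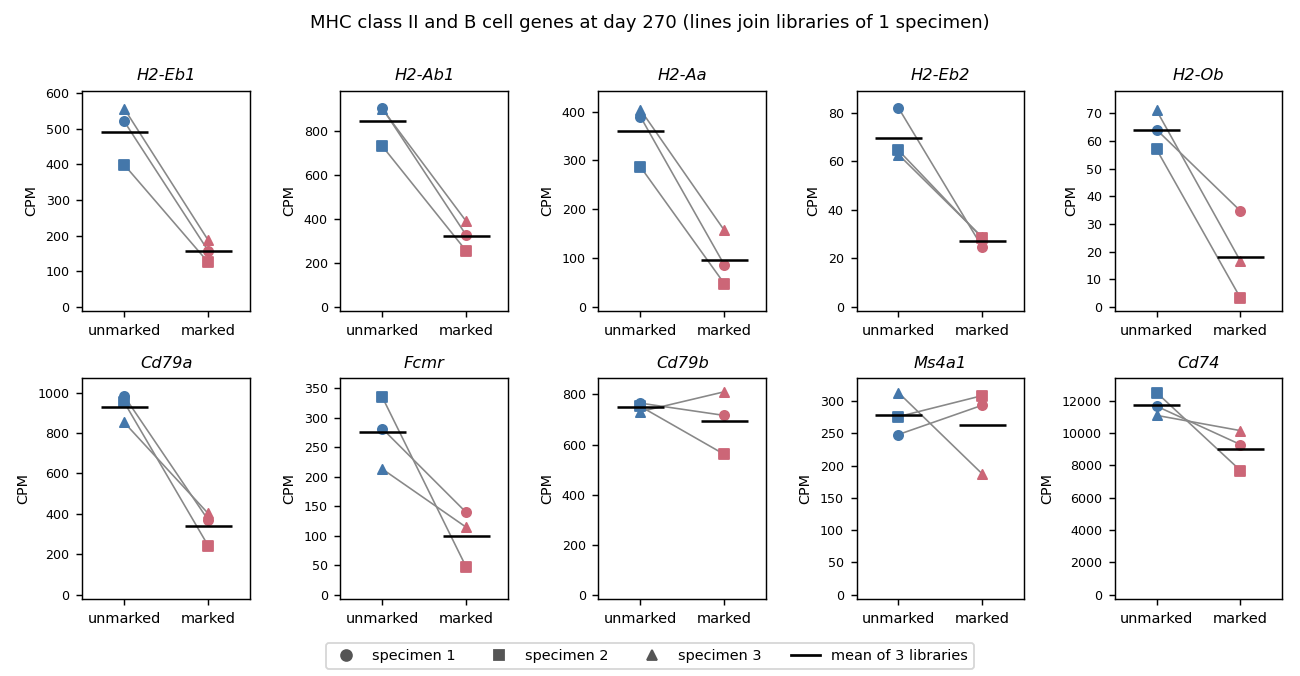
CPM of 10 MHC class II and B cell genes in the 6 day 270 libraries, with lines joining the unmarked and marked library of 1 specimen and bars at the group means. The called class II genes, Cd79a and Fcmr fall in each specimen, while Cd79b and Ms4a1 overlap between groups.

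Genes of cell division were also among the called falls. Promoters of many mitotic genes are known to carry a cell cycle genes homology region (CHR), which the DREAM and MuvB complexes bind to hold these genes off in resting cells. The 60 bases before the start site (RefSeq, GRCm38.p6, 5′ to 3′ in the direction of the gene) are shown for the 5 of 10 called division genes with a CHR core near the start. Of the other 5, Cdca3, Nek2 and Sapcd2 had no match in the 250 bases, Cdc45 had one far upstream, and Shcbp1 had no entry. Prc1 and Cep55 had 2 start sites each, and only the one shown had a match. Capitals mark TTTGAA, or TTCAAA where the core lies on the other strand.
Ncapg (chr5:45669865-45669924, plus strand): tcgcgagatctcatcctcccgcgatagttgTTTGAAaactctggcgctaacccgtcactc
Ncapg2 (chr12:116405376-116405435, plus strand): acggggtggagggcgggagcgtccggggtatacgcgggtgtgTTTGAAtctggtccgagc
Prc1 (chr7:80294416-80294475, plus strand): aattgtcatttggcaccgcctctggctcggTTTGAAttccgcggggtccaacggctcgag
Ska3 (chr14:57826164-57826223, minus strand): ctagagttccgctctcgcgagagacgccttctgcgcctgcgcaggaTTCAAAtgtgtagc
Cep55 (chr19:38054981-38055040, plus strand): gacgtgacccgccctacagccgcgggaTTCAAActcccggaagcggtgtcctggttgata
The core began 14 to 33 bases before the start in these genes. The same letters, searched on both strands of 250 bases, were in 16.0% of all promoters and in 12.7% of those of tested genes, so a match by itself is common.

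Of the mitotic genes, 4 were lower in marked cells by the test. Cdca3, which promotes entry into mitosis (ENSMUSG00000023505, chromosome 6, 124829547 to 124833701), had 13.2, 8.95 and 10.7 CPM in unmarked and 0.376, 0 and 0.757 CPM in marked libraries (-3.78 ± 0.54, adjusted p 0.00321). Prc1, a spindle midzone protein, had 10.9, 9.24 and 7.60 CPM in unmarked and 3.45, 0 and 0 CPM in marked libraries (adjusted p 0.0447, and 0.0567 with the specimen block). Nek2, a centrosome kinase, had 7.00, 6.74 and 4.17 CPM in unmarked and 0, 0.268 and 0 CPM in marked libraries (adjusted p 0.0389). In reads this was 202 against 2, a depth-scaled ratio of 95.04 (95% counting interval 25.97 to 790). Shcbp1, a protein of the dividing cell's midbody, had 2.02, 5.68 and 7.67 CPM in unmarked libraries and 0 reads in the marked ones (adjusted p 0.0314, and 0.0597 with the block). These 4 were the called genes of 40 in the G2 and mitosis list.

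Of those 40 genes, 38 had a negative log2 fold change. In 23 the groups did not overlap and marked was lower, as in 1519 (12%) of all tested genes. The list median was -1.66 against -0.22 over all genes. The latter depended on level: in bins 1 and 2 of the 4 equal bins, the lowest, medians over all tested genes were -0.53 and -0.31. With 5 genes without marked reads placed at their floor of 3 counts, the list median was -1.98. Over all tested genes 298 had no marked reads, and the medians of all genes and of the bins were not recomputed with that floor. The -1.98 therefore cannot be set against them. Values for members that did not pass were -2.27 for Top2a, a DNA topoisomerase (adjusted p 0.0654), and -3.09 for Cdk1, the mitotic kinase (0.0629, and 0.0465 with the specimen block). Mki67, which encodes Ki-67, had 23.5, 68.9 and 23.4 CPM in unmarked and 16.2, 23.4 and 28.5 CPM in marked libraries. Its groups overlapped, and its log2 fold change of -0.60 (95% interval -1.55 to 0.36) did not pass (adjusted p 0.571). Unmarked library 2 stood above the other 5 for Mki67, but not for Cdca3 or Nek2.

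The list of 30 S phase genes had a median of -0.48 and 1 called gene. Cdc45, part of the replicative helicase, had 4.60, 4.04 and 7.60 CPM in unmarked and 0.439, 0 and 0 CPM in marked libraries (-3.21 ± 0.56, adjusted p 0.0159). Outside the lists, the called division genes included Ncapg and Ncapg2, which are condensin subunits. Ncapg2 had 86.5, 92.3 and 89.5 CPM in unmarked and 43.9, 32.6 and 50.7 CPM in marked libraries, so all 6 libraries had reads (-1.09 ± 0.24, adjusted p 0.0471, and 0.0974 with the specimen block). The kinetochore gene Ska3, the abscission gene Cep55 and Sapcd2 had 0 reads in all marked libraries. Against a floor of 3 counts over the group, Shcbp1 was at least 57.7-fold lower, Sapcd2 at least 49.2-fold, Ska3 at least 36.1-fold and Cep55 at least 32.3-fold. Such floors cover counting error only. With the specimen block Ncapg (adjusted p 0.0695), Ska3 (0.0952) and Cep55 (0.0974) were not called.

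**Figure D3:**
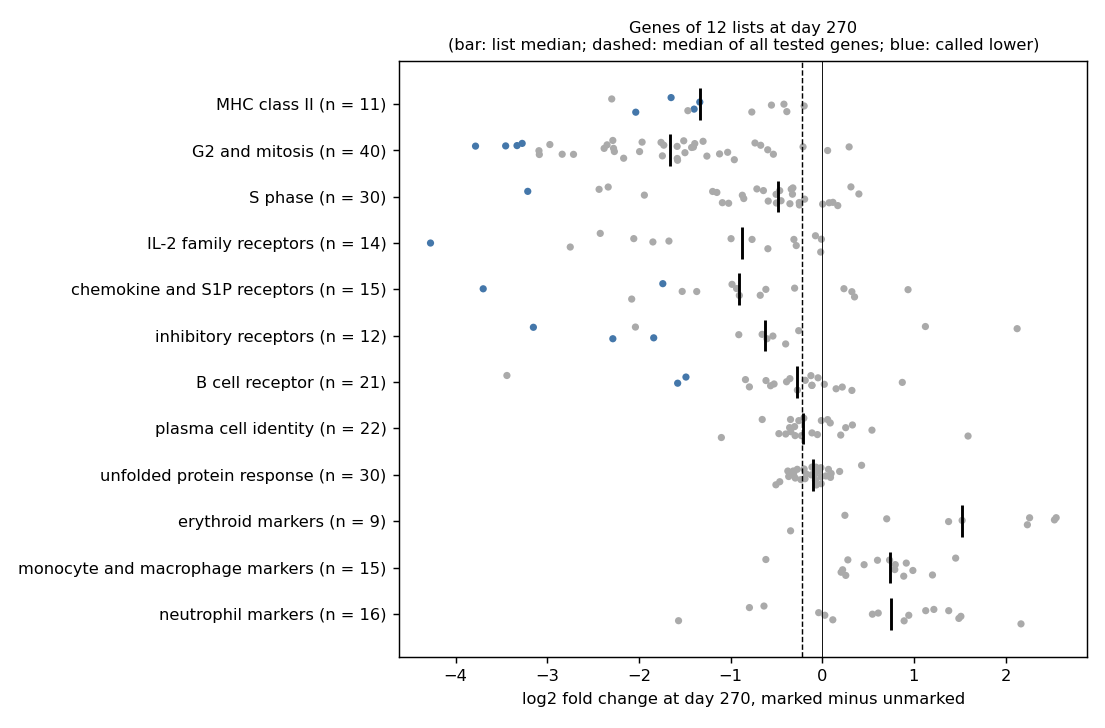
Log2 fold changes of the tested genes of 12 lists at day 270 (1 point per gene, vertical jitter only), with black bars at list medians and a dashed line at the median of all genes, -0.22. The medians of the G2 and mitosis list (-1.66) and the MHC class II list (-1.34) lie to the left, and those of the erythroid, monocyte and neutrophil markers lie to the right of zero, with 1, 1 and 4 members to its left.

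Several called falls were receptors and other proteins of the cell surface. Fas, the death receptor (ENSMUSG00000024778, chromosome 19, 34290666 to 34327772), had 16.8, 26.8 and 19.6 CPM in unmarked and 1.44, 0 and 1.51 CPM in marked libraries (-4.08 ± 0.52, adjusted p 0.00115). It was the called gene of 15 in the death receptor list, and the caspase and adaptor genes of the list, Casp8 (0.02) and Fadd (0.05), had log2 fold changes near 0. Spn, which encodes the sialoglycoprotein CD43, had 126, 124 and 99.96 CPM in unmarked and 39.6, 15.7 and 31.7 CPM in marked libraries (-2.08 ± 0.29, adjusted p 0.00261). Both falls were present in marked library 1 as well as in the 2 shallower marked libraries. Fcrl5, an Fc receptor-like gene of B lineage cells (ENSMUSG00000048031, chromosome 3, 87435773 to 87500678), had 7.27, 6.35 and 9.46 CPM in unmarked libraries and 0 reads in the marked ones. It was at least 85.3-fold lower, with an adjusted p of 0.0121. Fcrl5 and Fcmr were the called genes of 12 Fc receptor genes.

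Homing and cytokine receptors followed. Cxcr3, a receptor for interferon-induced chemokines (ENSMUSG00000050232, chromosome X, 101731535 to 101734269), had 32.3, 9.53 and 24.7 CPM in unmarked and 0.878, 4.97 and 0 CPM in marked libraries (-3.70 ± 0.67, adjusted p 0.0176). Specimen 2 had the smallest drop in Cxcr3, a pair difference of -0.88. Ccr10, a receptor of IgA plasma cells, had 124, 65.0 and 141 CPM in unmarked and 48.7, 21.5 and 28.02 CPM in marked libraries (-1.74 ± 0.36, adjusted p 0.0389). Cxcr3 and Ccr10 were the called genes of 15 chemokine and S1P receptors. Cxcr4, the receptor for the marrow retention signal CXCL12, had 305, 273 and 320.4 CPM in unmarked and 312, 160.2 and 285 CPM in marked libraries, and did not pass (-0.30, 95% interval -0.72 to 0.12, adjusted p 0.509).

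Il2rb, the shared beta chain of the IL-2 and IL-15 receptors (ENSMUSG00000068227, chromosome 15, 78479256 to 78495271), had 32.4, 8.37 and 19.0 CPM in unmarked and 2.63, 0 and 0 CPM in marked libraries (-4.28 ± 0.72, adjusted p 0.0132). At this pseudocount of 0.5 no called gene had a more negative log2 fold change, but with a pseudocount of 0.1 that of Fcrl5 (-6.27) was below that of Il2rb (-5.85). The list of 14 IL-2 family receptor and signalling genes had a median of -0.88 with every member negative, and Il2rb alone was called. Il2rg, the common gamma chain, stood at -0.07 (adjusted p 0.890).

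Among 12 inhibitory receptor genes 3 were called lower and the median was -0.63. Tigit (ENSMUSG00000071552, chromosome 16, 43648867 to 43664146) had 63.9, 41.4 and 52.2 CPM in unmarked and 23.7, 9.13 and 4.76 CPM in marked libraries (-2.29 ± 0.43, adjusted p 0.0223). Pdcd1, which encodes PD-1, had 5.34, 5.39 and 5.59 CPM in unmarked and 0.690, 0 and 0 CPM in marked libraries (adjusted p 0.0389, and 0.0675 with the specimen block). Ctla4 had 19.7, 29.1 and 17.4 CPM in unmarked and 7.71, 5.24 and 4.44 CPM in marked libraries (adjusted p 0.0463, and 0.103 with the block). Cd101, an inhibitory immunoglobulin-family receptor outside the list, was also called lower (-3.07 ± 0.60, adjusted p 0.0278, and 0.0658 with the block).

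Several of these receptors are also genes of T and NK cells. The 12 T and NK cell markers in the table summed to 58.0, 47.1 and 47.9 CPM in unmarked and 20.7, 28.1 and 42.4 CPM in marked libraries, with 0 of 11 tested called and a median of -0.86. Nkg7 had 0 reads in all 6 libraries, and Gzma and Eomes had 0 in the marked ones. Cd3g, a chain of the T cell receptor complex, had 6.90, 4.91 and 4.99 CPM in unmarked and 5.08, 4.03 and 4.22 CPM in marked libraries. Perforin (Prf1) had 21.1, 12.4 and 10.3 CPM in unmarked and 3.95, 3.49 and 0 CPM in marked libraries (-2.80, adjusted p 0.0823). The part of T cell RNA in the falls of Tigit, Pdcd1, Ctla4, Il2rb and Cxcr3 was not tested.

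**Figure D4:**
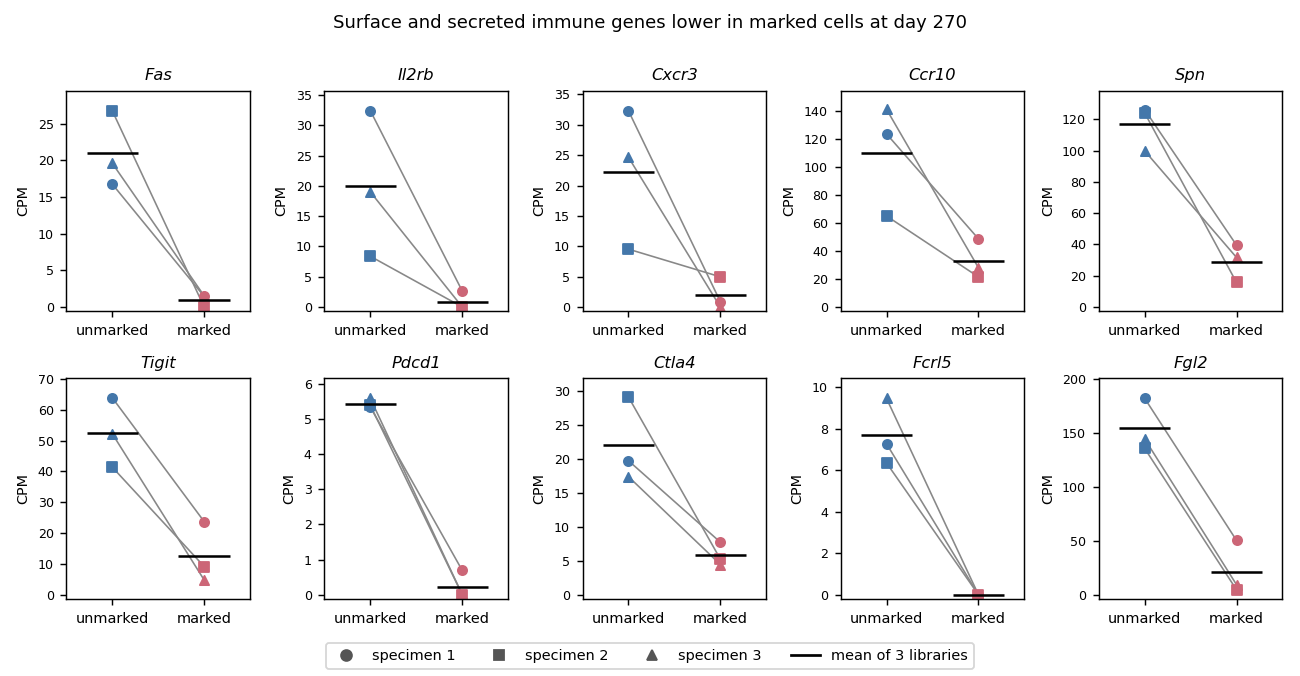
CPM of 10 surface and secreted immune genes in the 6 day 270 libraries, with lines joining the libraries of 1 specimen and bars at the group means. Fas, Il2rb, Pdcd1 and Fcrl5 are at or near 0 in the marked libraries, whereas Spn, Ccr10 and Ctla4 keep reads in all 6.

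Of 23 Myc and G1 genes measured 3 were called lower. Myc, a driver of cell growth, had 19.2, 17.9 and 16.7 CPM in unmarked and 1.82, 1.88 and 5.63 CPM in marked libraries (-2.51 ± 0.49, adjusted p 0.0295, and 0.0658 with the specimen block). Ccnd2, which encodes the G1 cyclin D2, had 140.02, 148 and 177 CPM in unmarked and 60.7, 69.4 and 71.4 CPM in marked libraries (-1.20 ± 0.21, adjusted p 0.0173). Pim2, a kinase that promotes survival and growth, had 112, 125 and 126 CPM in unmarked and 71.4, 38.9 and 70.8 CPM in marked libraries (adjusted p 0.0447, and 0.0646 with the block). In none of these 3 genes did a marked library reach the lowest unmarked one. The list median of -0.22 was close to that of all genes, and 6 members were positive, among them Ccnd3, another D cyclin (0.42, adjusted p 0.463).

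Fgl2 and Atp1b1 also fell. Fgl2, a fibrinogen-like protein secreted or held on immune cells, had 182, 136 and 144 CPM in unmarked and 50.3, 4.56 and 9.30 CPM in marked libraries (-3.49 ± 0.54, adjusted p 0.00684). Atp1b1, the beta subunit of the sodium pump (ENSMUSG00000026576, chromosome 1, 164437109 to 164458355), had 77.7, 56.2 and 60.0 CPM in unmarked and 15.7, 4.16 and 3.46 CPM in marked libraries (-3.27 ± 0.51, adjusted p 0.00684). In both, marked library 1 kept the most RNA of the marked libraries. Over all 55 lower genes marked library 1 was the highest marked library in 36, and over all 12704 tested genes in 4929.

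Other called falls covered enzymes and secreted or endoplasmic reticulum proteins. Fam3c, a cytokine-like secreted protein, had 20.8, 18.8 and 30.2 CPM in unmarked and 0.314, 4.56 and 2.06 CPM in marked libraries (-3.41 ± 0.58, adjusted p 0.0147). Creg2 had 9.11, 12.1 and 9.98 CPM in unmarked and 2.45, 0 and 0 CPM in marked libraries (-3.58 ± 0.63, adjusted p 0.0167). The aspartic protease Napsa (-1.21), the lipase Lipc (-1.56), the heparan sulfate cleaving enzyme Hpse (-1.64), the calcium-binding protein Rcn3 (-1.97) and Glipr1 (-1.33) fell as well, of which Hpse was not called with the specimen block (adjusted p 0.0502). Coro1a, an actin regulator of leukocytes, was the called gene of 20 in the actin list, with 208, 178 and 204 CPM in unmarked and 124, 95.04 and 91.5 CPM in marked libraries (-0.93 ± 0.17, adjusted p 0.0187).

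Other called genes encode proteins of the nucleus. Pcf11, a factor of transcript 3′ end cleavage (ENSMUSG00000041328, chromosome 7, 92643543 to 92669934), had 24.5, 22.5 and 19.1 CPM in unmarked and 8.72, 0 and 0.108 CPM in marked libraries (-3.99 ± 0.76, adjusted p 0.0238). Noc3l, a protein of ribosome assembly, had 13.3, 21.7 and 15.3 CPM in unmarked and 4.45, 1.21 and 0 CPM in marked libraries (-3.38 ± 0.62, adjusted p 0.0194). These 2 were near 0 in marked libraries 2 and 3 and above 4 CPM in marked library 1. Gpatch2 (-1.84), the polycomb protein gene Phc3 (-1.69), the zinc finger genes Zscan29 (-1.49) and Zfp40 (-3.19), and Trp73 (-3.04), a relative of p53, were also called lower. Zfp40 had 0 reads in the marked libraries and was at least 44.5-fold lower. With the specimen block Zscan29 and Zfp40 (adjusted p 0.0898 for each) and Trp73 (0.0597) were not called.

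The remaining called falls were Sema6b (-3.07), a semaphorin with 1 read over the marked libraries, and Myo10 (-2.97), an unconventional myosin. They also included Rras2 (-2.07), a Ras-related GTPase, Trim59 (-1.81), Ubash3b (-1.63), Fam65b (-1.58), Dfna5 (-2.98), which encodes gasdermin E, Pydc4 (-1.78) and 1 gene model without a name. Sema6b had 135 reads in unmarked cells, a depth-scaled ratio of 127 (95% counting interval 22.4 to 5054). None of the named genes of this set was called with the specimen block, where their adjusted p ran from 0.0517 (Trim59 and Rras2) to 0.102 (Pydc4).

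Genes higher in marked cells were few. Enpp5, a member of the nucleotide pyrophosphatase family (ENSMUSG00000023960, chromosome 17, 44078813 to 44086567), had 4.14, 5.87 and 5.21 CPM in unmarked and 33.9, 31.8 and 48.1 CPM in marked libraries. Its mean was 7.48-fold higher (log2 2.77 ± 0.43, adjusted p 0.00684), and the 3 pairs rose by 2.89, 2.34 and 3.09. Slc12a2, the sodium, potassium and chloride cotransporter, had 301, 400.2 and 224 CPM in unmarked and 682, 634 and 682 CPM in marked libraries (1.15 ± 0.20, adjusted p 0.0167). Slc12a2 and the falling Atp1b1 were the called genes of 18 for chloride and sodium transport.

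Nox1, a superoxide-producing oxidase, had 85.3, 126 and 87.1 CPM in unmarked and 205, 254 and 181 CPM in marked libraries (1.10 ± 0.23, adjusted p 0.0433). Cyb561, a transmembrane cytochrome, had 11.05, 15.2 and 13.3 CPM in unmarked and 37.8, 28.5 and 39.5 CPM in marked libraries (1.38 ± 0.30, adjusted p 0.0463, and 0.116 with the specimen block). Nox1 and Cyb561 were called of 10 genes in the oxidase list, whose median was -0.08. Cyba, the p22phox partner of Nox1, stood at 0.37 (adjusted p 0.317).

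Slamf9, a SLAM family receptor, had 151, 188 and 178 CPM in unmarked and 294, 346 and 387 CPM in marked libraries (0.99 ± 0.19, adjusted p 0.0265). The other 8 SLAM family genes tested had negative log2 fold changes and were not called. Spns3, of the sphingolipid transporter family, had 75.2, 79.5 and 88.1 CPM in unmarked and 176, 125 and 168 CPM in marked libraries (0.93 ± 0.20, adjusted p 0.0447, and 0.0517 with the block). In each of the 6 rises specimen 2 had the smallest pair difference.

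**Figure D5:**
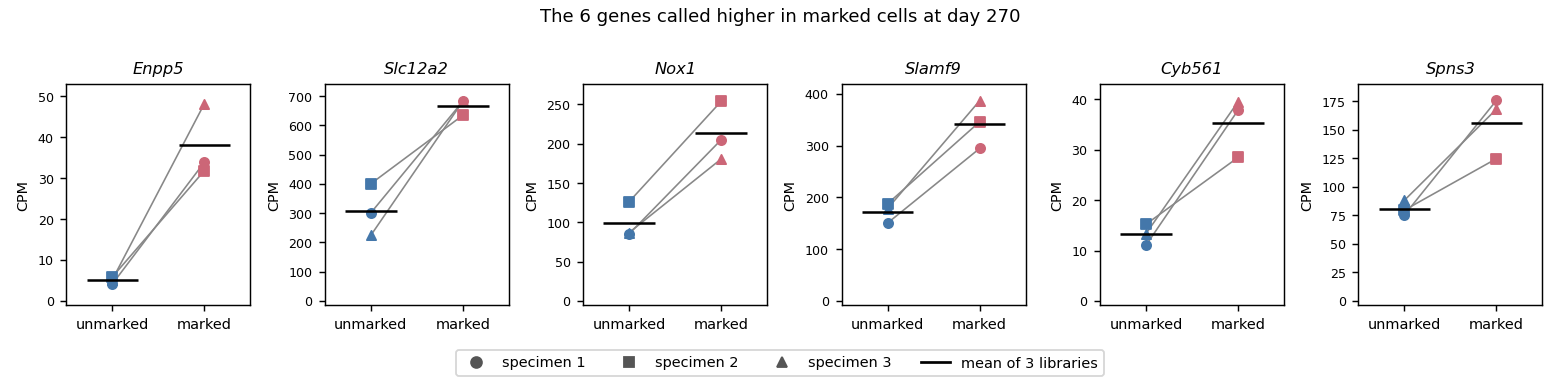
CPM of the 6 genes called higher in marked cells, in the 6 day 270 libraries, with lines joining the libraries of 1 specimen and bars at the group means. Each line rises, and Enpp5 goes from 4.14 to 5.87 CPM in unmarked up to 31.8 to 48.1 CPM in marked libraries.

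The genes that define plasma cells were not called. Among 22 plasma cell identity genes 0 were called, 15 were negative and 7 positive, and the median of -0.21 was close to that of all genes. Sdc1, the plasma cell surface marker CD138, had 2342, 2138 and 1973 CPM in unmarked and 2329, 1751 and 2171 CPM in marked libraries (-0.05, 95% interval -0.40 to 0.30, adjusted p 0.916). Tnfrsf17, the survival receptor BCMA, had 343, 359 and 332 CPM in unmarked and 401, 291 and 396 CPM in marked libraries (0.06, -0.29 to 0.40, adjusted p 0.902). The signs of both turned under other settings, as did that of Xbp1.

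The transcription factors of the lineage overlapped between groups. Xbp1, which drives the secretory apparatus, had 6043, 5949.7 and 5952 CPM in unmarked and 5810.4, 4754 and 6134 CPM in marked libraries (-0.11, 95% interval -0.51 to 0.28, adjusted p 0.825). Prdm1, which encodes Blimp-1, had 249.6, 335 and 180.3 CPM in unmarked and 176, 157 and 266 CPM in marked libraries (-0.34, -0.82 to 0.14, adjusted p 0.509). Irf4 had 1045, 1061 and 804 CPM in unmarked and 856, 551 and 825 CPM in marked libraries (-0.40, -0.78 to -0.02, adjusted p 0.339). Across the 3 factors marked library 2 was the lowest of the 6. Of 23 B and plasma cell transcription factors 0 were called.

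Jchain, the joining chain of secreted IgM and IgA, was lowest in marked library 2. Its log2 fold change was -0.47 (95% interval -1.61 to 0.67, adjusted p 0.724), and 0.12 without marked libraries 2 and 3. Bcl2, an antiapoptotic relative of Mcl1, had 76.4, 79.2 and 65.6 CPM in unmarked and 66.4, 40.5 and 73.0 CPM in marked libraries (-0.33, -0.81 to 0.14, adjusted p 0.514). Ly6a, which encodes Sca-1, had 1823, 2049 and 2548 CPM in unmarked and 2568, 2411 and 3048 CPM in marked libraries (0.33, -0.04 to 0.70, adjusted p 0.415). None of 14 Bcl2 family genes and 0 of 15 survival receptor genes were called. The lists of NF-kB (20 genes), TNF family (11), integrins and adhesion (23), interferon response (17), unfolded protein response (30), heat shock (14), immediate early (15), mitochondrially encoded (7) and Ly6 (8) genes also had 0 called. These intervals are wide enough to hold changes of moderate size, and a p above the threshold does not show equal levels.

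Red cell RNA was higher in the marked library of each specimen. The 4 adult globin genes, taken as a sum because near-identical copies share reads, summed to 26.9, 150 and 149 CPM in unmarked libraries 1 to 3 and to 158, 773 and 671 CPM in marked ones. All 4 genes were called higher with the specimen as a block, which called 44 genes (0.346%), and 0 of them without it. Hbb-bs, a beta globin, had 17.2, 85.6 and 81.8 CPM in unmarked and 88.1, 412 and 360.4 CPM in marked libraries (2.24 ± 0.58, adjusted p 0.0949, and 1.82e-04 with the block). Within each specimen the marked library had more, and specimen 1 had less than the others in both.

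Neutrophil markers summed to 46.6, 250 and 238 CPM in unmarked and 90.3, 549 and 604 CPM in marked libraries, with 0 of 16 called and a median of 0.75. Monocyte and macrophage markers summed to 299, 639 and 499 CPM in unmarked and 501, 626 and 991 CPM in marked libraries, with 0 of 15 called and a median of 0.73. Megakaryocyte markers had a median of -1.25 (5 of 5 negative) and sums of 1.93 to 64.3 CPM in unmarked and 3.32 to 20.8 CPM in marked libraries. Plasmacytoid dendritic markers had a median of -0.60 (6 of 7 negative, 3 with groups that did not overlap and marked lower) and sums of 573 to 681 and 409.6 to 644 CPM. Over all tested genes, 12% had groups that did not overlap with marked lower. Dendritic cells also express class II genes. Their 5 tested markers had a median of 0.32 (2 negative), and the most negative was Fscn1 (-2.66, adjusted p 0.0680). Stromal (-0.61), basophil (-0.43) and early B cell (-0.48) markers had negative medians too, and none of these 6 lists had a called member. The part of these cells in the 61 calls was not tested.

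The difference between days was tested for every gene. limma called 0 genes (0%) for a day 270 effect unlike that of day 60, with 387 at an unadjusted p under 0.05, and DESeq2 called 5. At day 60 alone limma called 24 genes (0.189%), and 10 of the 61 were among them. Of the 61 genes 59 had the same sign at day 60, the exceptions being Dfna5 and Myo10. The share of all tested genes with the same sign on both days was not computed. The count of 59 therefore has no background to be read against. At day 60 Fas stood at -1.10 (adjusted p 0.771), a difference of -2.98 between days (95% interval -4.51 to -1.44) that did not pass over all genes (adjusted p 0.9999) but was among the 5 of DESeq2. For H2-Eb1 the difference was -0.17 (-0.69 to 0.35) and for Enpp5 1.11 (-0.18 to 2.40).

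The number of calls rested on single libraries. Leaving out unmarked libraries 1, 2 and 3 in turn gave 5, 15 and 6 calls. Leaving out marked libraries 1, 2 and 3 in turn gave 482, 68 and 103. The 5 genes called without unmarked library 1 were H2-Eb1, H2-Ab1, Cd79a, Fas and Spn, and without unmarked library 3 Cdca3 joined them. Without marked libraries 2 and 3 together, an alternative chosen after seeing the data, 15 genes were called and 9 of these were among the 61: Fas, Cdca3, Fam3c, Cxcr3, Myc, Cd79a, H2-Eb1, H2-Ab1 and H2-Aa. That fit assumes that the lone marked library varies like the others. Fitting the 6 day 270 libraries alone gave 0 calls with limma (989 at an unadjusted p under 0.05), and 30 with the specimen block. H2-Eb1, H2-Ab1 and Cd79a were called in 25 of 26 alternatives and Fas and Spn in 24. No called gene changed sign in any alternative that tested it.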

How the data were processed

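RNA of sorted plasma cells was sequenced in 12 libraries, 3 per group. Per the labels' protocols, RNeasy Micro kits gave the RNA and a TruSeq kit the libraries. GRCm38 and limma (no version) are named per the submitters' processing notes. Aligner and counter: not given in the sources used here. A table deposited by the authors gives CPM for 14219 genes, and a second deposited table gives counts for 230 genes. The authors' log2 fold changes and p-values in these tables were not used. Scaling CPM by each library's total recovered whole reads. Below 1000 reads, 100% of 151331 values were whole to within 0.05 reads, and the count table was matched in 100% of its cells. The totals cover only genes of the table.

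The test was limma 3.58.1 (R 4.3.3) with a trended prior on log2(CPM + 0.5), so fold changes of low genes are understated. The 4 groups of all 12 libraries had a coefficient each, without block, leaving 8 residual degrees of freedom. The filter filterByExpr in edgeR 4.0.16 (minimum count 10) kept 12704 genes. Calls needed a Benjamini-Hochberg adjusted p under 0.05, two-sided, with no fold minimum. The design foresaw an edgeR count test had the table of all genes held counts; it holds CPM. Scripts were tested on simulated data.

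Libraries of 1 specimen share a number in the labels, which gives the pairing. Residual correlations were 0.0953, 0.0336 and -0.0109 within specimens and -0.0788 to 0.0290 between them. Library numbers of specimen 1 are neighbours (5 and 6); in specimens 2 and 3 unmarked libraries are 13 and 14 and marked ones 22 and 23, so within those pairs library number and marking go together and cannot be told apart.

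Gene lists and the comparison were chosen with earlier results of these data known. Named genes are called genes with a symbol and 12 genes taken whatever their values; other list members, and markers, are named as examples chosen after their values were seen. Positions are from GENCODE M21, promoters from RefSeq (GRCm38.p6). Alternatives were other pseudocounts, filters, scalings and priors, limma-voom, edgeR, DESeq2 1.42.0, the block, and leaving out libraries.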

Additional observations from a re-analysis of the deposited data

Results flagged for a closer look

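Myo10, an unconventional myosin, fell in all 3 specimens at day 270 and rose in all 3 at day 60. The difference of the day 270 and day 60 log2 fold changes was -3.448 (95% interval -5.32 to -1.58). Its unadjusted p was 0.00113 and its adjusted p over all genes 0.9999, so the difference did not pass. At day 270 it had 3.41, 7.22 and 3.28 CPM in unmarked and 0.439, 0 and 0 CPM in marked libraries. At day 60 it had 0.351, 0.858 and 0.688 CPM in unmarked libraries (24 reads in all). The marked libraries of day 60 had 0.485, 1.07 and 1.88 CPM (36 reads in all). The day 60 rise of 0.47 ± 0.63 did not pass in limma (adjusted p 0.976) and rests on few reads.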

How the results depend on the processing

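The main count of 61 genes was 36 with edgeR, 256 with DESeq2, 129 with library quality weights, 0 with only the 6 day 270 libraries, 30 with these and the replicate block, and 15 without marked libraries 2 and 3. Leaving out libraries of 1 replicate gave 5 to 482. With the specimen as replicate block it was 44 (9 higher, 35 lower, 36 of the 61 among them), and the 25 genes not called with it had adjusted p 0.0502 to 0.116. Other pseudocounts, filters, scalings and priors gave 44 to 91. The test between days called 0 genes in most settings, 5 with DESeq2, and 0 to 1 (Pcf11) when 1 replicate was left out. No other call of the test between days changed with the block. Of genes that were not called, Sdc1 turned positive with TMM scaling (0.070), totals without Jchain and features resembling ribosomal RNA (0.045), limma-voom (0.082), edgeR (0.0785), DESeq2 (0.11), without marked libraries 2 and 3 (0.12) and without the libraries above 10% of such reads (0.067). Xbp1 turned positive with TMM scaling (0.010), limma-voom (0.014), edgeR (0.016) and DESeq2 (0.049). With libraries of 1 replicate left out, the range was -0.148 to 0.067 for Sdc1, -0.039 to 0.239 for Tnfrsf17 and -0.796 to 0.031 for Prdm1. Without marked libraries 2 and 3, Jchain was 0.12 and Cxcr4 0.061. The causes were not tested. Low genes limit the comparison: in the lowest of 4 equal bins of level the median SE was 0.756, against 0.217 in the highest.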
